A study of Rattus norvegicus with 11 samples.

Results

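Rat bone marrow mesenchymal stem cells (BMSCs) labelled imDC were set against the 2 other groups of the same experiment, labelled IRDC and control, to find genes that stood highest or lowest in imDC instead of between the others. The 3 imDC libraries were compared with 4 IRDC and 4 control libraries, so 3 of 11 libraries carry the result. A gene belonged to this non-graded set when its 3 imDC values all lay above, or all below, the 8 other values. Among 12521 genes with at least 1 FPKM (fragment counts scaled by transcript length and library depth) in at least 3 libraries, 933 lay above (7.45%) and 682 below (5.45%), 1615 genes in all (12.9%).

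BMSCs grow from marrow as adherent stroma and can differentiate into osteoblasts, adipocytes and chondrocytes. All groups were rat BMSCs profiled at day 3 by sequencing of bead-captured mRNA. The series design names medium conditioned by dendritic cells (which it writes mDC), unirradiated (0 Gy) or irradiated (8 Gy), and a ctrl arm whose medium is not described. No dose stands in the titles Bmsc-imDC, Bmsc-IRDC and Bmsc: that imDC received the 0 Gy medium and IRDC the 8 Gy medium is taken from these names alone. Strain, age, sex, passage and the number of medium batches or donor animals are not given in the sources used here. Libraries are titled as biological replicates without mention of separate animals or cultures, and the spread behind every p-value is that among these libraries, which could be technical.

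Dendritic cells are antigen-presenting immune cells that secrete cytokines and growth factors. Stromal cells answer secreted factors by changing their own chemokines, matrix and growth factor inhibitors, and by entering or leaving the cell cycle. A dividing cell first copies its DNA with the MCM helicase, polymerases and nucleotide-making enzymes. It then builds a spindle and separates its chromosomes with kinesins, checkpoint kinases and the anaphase-promoting complex. Growing cells also make more ribosomes.

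Depth was 17783483 to 19575235 reads in imDC, 20518523 to 21676222 reads in IRDC and 21217608 to 25526653 reads in control, so every imDC library was shallower than every other. Marrow stromal surface genes were abundant in every group, with summed levels of 3550 to 3600 FPKM in imDC, 3770 to 3810 FPKM in IRDC and 3470 to 3550 FPKM in control. Of these 22 genes, 19 passed the filter on low values, and Ngfr, Lepr and Cd248 stayed under 1 FPKM. Myeloid transcripts were present in every group as well, and 26 of 39 macrophage and dendritic cell markers were tested. Their summed level was 1130 to 1160 FPKM in imDC, 753 to 760 FPKM in IRDC and 1120 to 1150 FPKM in control. The largest member was Lyz2, at 182 to 528 FPKM over all libraries with its lowest values in IRDC. Cd68 ranged from 66.5 to 126 FPKM and Tyrobp from 39.2 to 73.2 FPKM. The dendritic cell marker Xcr1 and the macrophage receptor Marco were at 0 in every library, and Flt3 and Ccr7 did not exceed 0.0591 and 0.257 FPKM. Other members of the list were low but detected, with highest values of 6.06 FPKM for Cd83, 3.07 for Cd80, 1.09 for Itgax and 0.778 for Zbtb46. In these bulk samples a change in the number of cells of a type and a change in RNA per cell cannot be told apart.

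Each gene was called higher or lower than both groups only when imDC minus IRDC and imDC minus control each passed an adjusted p of 0.05 in the same direction (limma on log2(FPKM + 1), Benjamini-Hochberg over 12521 genes). The call held for 926 genes higher (7.4%) and 675 genes lower (5.39%). Of these, 833 and 588 also met the rule on values, while 100 genes above and 94 genes below by the rule missed the call. The rule and the call use the same values, so their overlap is no separate support. Leading genes were chosen from these values too, so their p-values below describe them and add no further support. Both differences share the imDC libraries, so they are not independent. Singly, imDC minus IRDC was called for 58.8% of genes (38.6% higher, 20.2% lower) and imDC minus control for 63.2% (23.1% higher, 40.1% lower). IRDC minus control was called for 76.0% (24.5% higher, 51.5% lower). The difference of imDC from the mean of both group means was called for 5746 genes (45.9%, with 23.8% higher and 22.1% lower), and 1603 of these followed a graded order. Most differences were small, with a median smaller difference of 0.26 on the log2 scale in the higher set and 0.19 in the lower set. The smaller difference reached 2-fold in 16 higher genes and in no lower gene, and 1.5-fold in 106 and 14 genes. A graded order, with imDC between IRDC and control and both steps called, held for 1208 genes upward and 2499 genes downward. When each library was thinned to the lowest depth, 898 genes were called higher and 635 lower, of which 871 and 617 were among the genes above.

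The balance between the directions moved with the scaling. Higher calls were 57.8% of the calls on the authors' scaling, 47.0% under median-ratio scaling (780 higher, 880 lower) and 47.5% under quantile normalization (827 higher, 915 lower). Median-ratio scaling moved the median of all genes for imDC minus IRDC to -0.016, against 0.091 on the authors' scaling. Of the genes called on the authors' scaling, 626 higher and 466 lower were also called under median-ratio scaling.

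**Figure D1:**
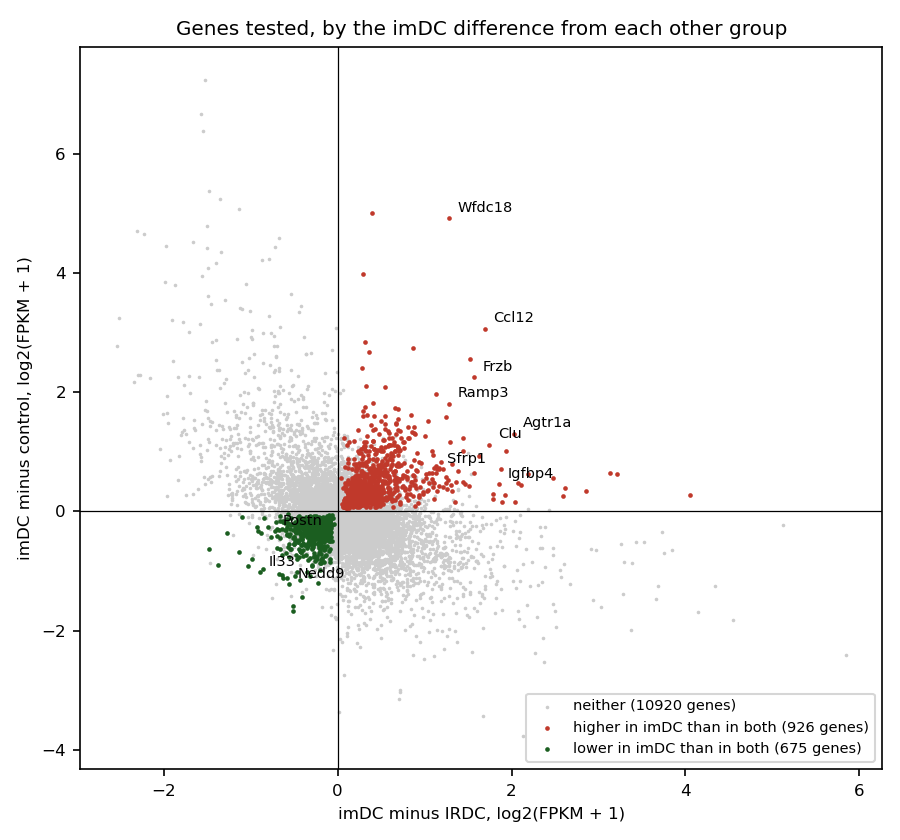
Each point is a gene tested, placed by imDC minus IRDC (horizontal axis) and imDC minus control (vertical axis), both on the log2(FPKM + 1) scale. The 926 genes called higher than both groups (red) fill the upper right, where Wfdc18, Ccl12 and Frzb stand far out, and the 675 called lower (green) stay closer to the origin in the lower left.

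Among the genes that stood farthest above both groups were Ccl12, Frzb, Agtr1a and Ramp3, and 5 of the 25 leading genes were on the mitosis or replication lists (Cdc20, Kif20a, Pbk, Tk1 and Uhrf1). The mitosis and replication lists held 34 and 27 of the 926 genes called higher, and 39 and 41 of the 12521 genes tested. Of the 25 leading genes, IRDC was higher than control in 17, lower in 6 and undecided in 2. Among all 926 genes called higher, these shares were 35.6%, 27.1% and 37.3%, and among all genes tested 24.5%, 51.5% and 24.0%. The chemokine gene Ccl12, whose product attracts monocytes, had 27.0, 29.0 and 26.3 FPKM in the imDC libraries, 8.06, 8.08, 8.11 and 6.88 FPKM in IRDC and 1.39, 3.15, 3.18 and 2.19 FPKM in control. Every imDC value was more than 3 times any other. The difference was 1.70 (SE 0.16) against IRDC and 3.07 (SE 0.16) against control on the log2 scale (limma, adjusted p = 1.7e-06 and 4.8e-09). A second chemokine gene, Cxcl12, which holds blood stem cells in marrow, was among the most abundant members at 705, 708 and 702 FPKM in imDC, 476, 477, 470 and 471 FPKM in IRDC and 513, 510, 495 and 507 FPKM in control. Both were higher in every imDC library than in any other, but Cxcl12 by a much smaller margin, 0.57 (SE 0.015) over IRDC and 0.48 (SE 0.015) over control (limma, adjusted p = 8.2e-12 and 3.2e-11). These were the only 2 of 17 chemokine genes tested that were called higher than both (11.8%, against 7.4% of all genes). None was called lower.

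Wnt signalling controls bone formation by stromal cells, and its secreted regulators did not all move in the same direction. Of 26 Wnt pathway genes tested, 4 were called higher and 4 lower (15.4% each, against 7.4% and 5.39% of all genes). Under the alternatives of length and scaling, 5 or 6 were called higher and 3 to 5 lower. Frzb, which encodes a secreted inhibitor that binds Wnt proteins, had 6.45, 6.38 and 6.03 FPKM in imDC, 1.21, 1.82, 1.45 and 1.36 FPKM in IRDC and 0.654, 0.584, 0.544 and 0.356 FPKM in control. The groups did not overlap, and the differences were 1.57 (SE 0.099) over IRDC and 2.25 (SE 0.099) over control (limma, adjusted p = 4.2e-08 and 1e-09). Sfrp1, a relative with the same activity, averaged 466 ± 2.04 FPKM in imDC (n = 3), 207 ± 1.80 FPKM in IRDC and 284 ± 2.90 FPKM in control (SD, n = 4 each). The third such gene, Sfrp4, averaged 125 FPKM in imDC, 60.2 FPKM in IRDC and 96.7 FPKM in control. The R-spondins, which enhance Wnt signalling, split: Rspo1 was called higher at 7.51 FPKM in imDC, 2.87 in IRDC and 5.75 in control. Rspo3 was called lower, at 2.43, 2.37 and 2.41 FPKM in imDC, 5.09, 5.35, 5.04 and 5.24 FPKM in IRDC and 5.38, 6.11, 5.87 and 5.25 FPKM in control. Axin2, a common readout of Wnt signalling, was low everywhere and called lower, at 0.309 ± 0.128 FPKM in imDC, 0.840 ± 0.196 FPKM in IRDC and 1.78 ± 0.251 FPKM in control (15 to 35 reads per imDC library). It passed the filter on low values through the control libraries, where it is highest, so its call is no support for a lower level.

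Several receptors and binding proteins peaked in imDC. Agtr1a, the angiotensin II receptor, had 20.8, 21.9 and 21.5 FPKM in imDC, 3.91, 4.49, 4.52 and 5.06 FPKM in IRDC and 7.86, 8.47, 8.09 and 7.84 FPKM in control. It was thus lower in IRDC than in control and yet at least 2 times higher in imDC than in any other library, with differences of 2.03 (SE 0.064) and 1.30 (SE 0.064) from IRDC and control (limma, adjusted p = 5.7e-11 and 2.8e-09). Ramp3, a partner protein of the adrenomedullin receptor, had 149, 152 and 159 FPKM in imDC, 60.8 to 63.7 FPKM in IRDC and 40.4 to 45.6 FPKM in control. Clu, the secreted chaperone and complement inhibitor clusterin, had 174, 181 and 180 FPKM in imDC, 50.5 to 54.9 FPKM in IRDC and 78.8 to 83.5 FPKM in control. Igfbp4, which binds and restrains insulin-like growth factors, averaged 258 FPKM in imDC, 70.5 FPKM in IRDC and 188 FPKM in control. Here the IRDC libraries held by far the lowest values, and imDC exceeded control by 0.45 (SE 0.022; limma, adjusted p = 2.4e-09). The same order, imDC above control above IRDC, was seen in Anpep, a surface peptidase of stromal cells (366, 180 and 237 FPKM in imDC, IRDC and control), and in the prostaglandin transporter gene Slco2a1. Pdgfra, the receptor for platelet-derived growth factor that marks stromal progenitors, kept IRDC in between, with 131, 91.8 and 78.2 FPKM in imDC, IRDC and control. These were not typical of the stromal surface markers, of which 3 of 19 were called higher and 5 lower (15.8% and 26.3%, against 7.4% and 5.39% of all genes). The lower count was 3 with the length curve removed or under median-ratio scaling. Among the lower ones, Thy1 averaged 862, 1060 and 977 FPKM and Cd9 averaged 160, 185 and 193 FPKM in imDC, IRDC and control.

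**Figure D2:**
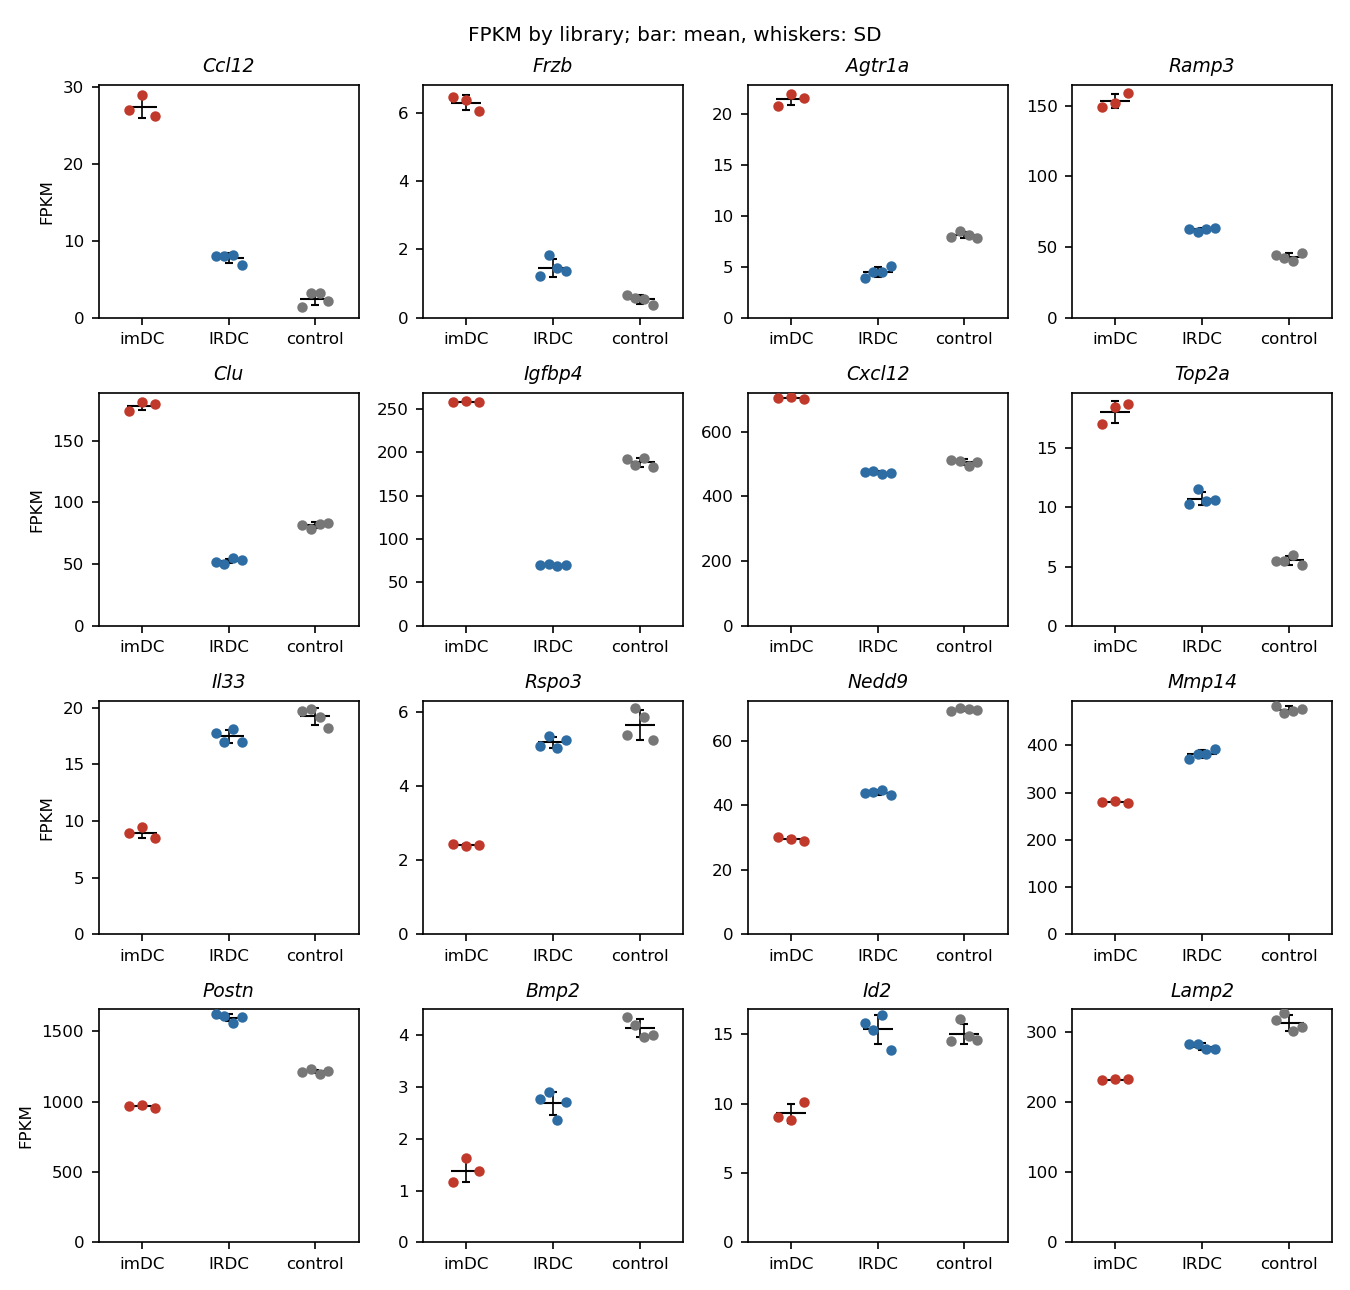
FPKM in each library (points) with the group mean (bar) and SD (whiskers) for imDC (red), IRDC (blue) and control (grey); the vertical axes start at 0. In the upper 8 panels the 3 imDC libraries lie above the 8 others, and in the lower 8 panels they lie below them.

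Genes that were strongly induced in both treated groups reached their top in imDC in a few cases. Wfdc18, a small secreted whey-acidic protein, had 186, 187 and 196 FPKM in imDC, 72.1 to 81.7 FPKM in IRDC and 4.44 to 7.21 FPKM in control. Ndufa4l2, a hypoxia-inducible mitochondrial protein, averaged 85.5 FPKM in imDC, 64.7 FPKM in IRDC and 1.70 FPKM in control. The margin over IRDC was 1.28 (SE 0.11) for Wfdc18 and 0.40 (SE 0.082) for Ndufa4l2 (limma, adjusted p = 8.5e-07 and 0.0012). Of 28 hypoxia genes tested, 2 were called higher than both (7.14%, near the 7.4% of all genes) and none lower. With the length curve removed or under median-ratio scaling, 1 was higher and 1 lower. Of 18 glycolytic genes tested, 3 were called higher (16.7%, against 7.4% of all genes). They were led by the aldolase gene Aldoc with 42.3, 28.8 and 9.16 FPKM in imDC, IRDC and control. The glycolytic count was 2 with the length curve removed or under median-ratio scaling and 3 under quantile normalization. Of 39 inflammatory genes, 1 was called higher, the inhibitor gene Nfkbie, and 1 lower, Il33 (2.56% each, against 7.4% and 5.39% of all genes). None of 25 interferon response genes, 24 p53 targets or 12 adipocyte genes tested was called in either direction by limma, and none by voom on recovered reads. At an unadjusted p of 0.05 the counts were 0, 1 (lower) and 0. Other processing did call a few of them: 2 p53 targets lower and 1 higher with the length curve removed or under median-ratio scaling, 1 and 1 under quantile normalization, and 1 interferon gene lower under quantile normalization. In the interferon genes each single difference could still pass, with 21 higher in imDC than in IRDC and 17 lower in imDC than in control, the order that puts imDC in between. Among all genes tested, 38.6% were higher in imDC than in IRDC and 40.1% lower in imDC than in control.

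Genes of mitosis were higher in imDC than in both groups in most cases. Of 39 mitosis and spindle genes tested, 34 were called higher than both groups (87.2%, against 7.4% of all genes). None was called lower by limma, by voom on recovered reads or at an unadjusted p of 0.05, and the same 0 held for the replication, ribosomal, splicing and myeloid lists. The count was 32 with a gene-length curve removed, 32 under median-ratio scaling and 31 under quantile normalization. Their median difference from the mean of the other groups was 0.81 on the log2 scale, against 0.00 for all genes. In 33 of 34 called genes IRDC was also higher than control, against 35.6% of all genes called higher and 24.5% of all genes tested. In those 33 genes imDC stood at the top of a rise that both treated groups shared. Aurkb, Cenpa, Nek2, Cks1b and Cdc25c were tested and not called. The G1-S regulators and cyclins did not share this. Of 21 tested, 2 were called higher and 1 lower (9.52% and 4.76%, near the 7.4% and 5.39% of all genes). Among the higher ones was Ccne1, which encodes a cyclin of S phase entry, at 8.98, 4.67 and 6.70 FPKM in imDC, IRDC and control. The other higher gene averaged only 1.22 FPKM in imDC. It passed the filter on low values through the imDC libraries, where it is highest, so its call is no support for a higher level.

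Among the members, Cdc20 activates the anaphase-promoting complex. It had 9.03, 8.88 and 10.2 FPKM in imDC, 5.78, 4.19, 4.59 and 3.96 FPKM in IRDC and 2.58, 3.06, 3.90 and 3.41 FPKM in control. The differences were 0.89 (SE 0.12) over IRDC and 1.30 (SE 0.12) over control (limma, adjusted p = 4.3e-05 and 1.2e-06). Kif20a, a kinesin needed for cytokinesis, averaged 12.5 FPKM in imDC, 6.94 in IRDC and 5.49 in control, and its 3 imDC libraries lay within 12.2 to 12.6 FPKM. Top2a, the topoisomerase that untangles chromosomes, had 17.0, 18.4 and 18.7 FPKM in imDC, 10.3 to 11.5 FPKM in IRDC and 5.11 to 5.98 FPKM in control. Cdk1, the kinase that drives entry into mitosis, averaged 27.4, 19.1 and 8.84 FPKM in imDC, IRDC and control. Over IRDC these genes rose by 0.49 to 0.89, less than over control. In a pair of leading genes outside the list, IRDC was not above control. Cdkn3, a phosphatase of cyclin-dependent kinases, averaged 15.8 FPKM in imDC, 7.67 in IRDC and 8.51 in control, and Pimreg averaged 5.95, 1.85 and 2.12 FPKM in the same order.

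Promoter windows of 3 mitotic genes are shown because the members of this list moved together. Each window runs from 250 bases before to 50 bases after the annotated start (RefSeq, GRCr8, not the build of the expression table). Capitals mark CCAAT and TTTGAA on either strand, so that ATTGG is CCAAT on the other strand. Both elements are known from promoters of genes expressed late in the cell cycle. The windows are chr5:137255750-137256049 (minus strand) for Cdc20, chr18:26504172-26504471 (plus strand) for Kif20a and chr4:159320953-159321252 (plus strand) for Cdca3, a trigger of mitotic entry.
Cdc20: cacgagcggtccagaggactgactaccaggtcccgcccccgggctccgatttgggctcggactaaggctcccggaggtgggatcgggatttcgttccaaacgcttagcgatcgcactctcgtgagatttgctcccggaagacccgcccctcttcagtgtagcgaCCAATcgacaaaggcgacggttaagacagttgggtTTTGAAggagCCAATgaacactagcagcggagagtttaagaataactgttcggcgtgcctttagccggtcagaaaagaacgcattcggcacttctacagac
Kif20a: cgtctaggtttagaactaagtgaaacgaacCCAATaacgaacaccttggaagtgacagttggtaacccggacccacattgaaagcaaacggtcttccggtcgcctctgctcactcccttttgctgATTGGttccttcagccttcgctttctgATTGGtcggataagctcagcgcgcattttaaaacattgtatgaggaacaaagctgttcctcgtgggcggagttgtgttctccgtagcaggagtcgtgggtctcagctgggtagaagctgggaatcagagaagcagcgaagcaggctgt
Cdca3: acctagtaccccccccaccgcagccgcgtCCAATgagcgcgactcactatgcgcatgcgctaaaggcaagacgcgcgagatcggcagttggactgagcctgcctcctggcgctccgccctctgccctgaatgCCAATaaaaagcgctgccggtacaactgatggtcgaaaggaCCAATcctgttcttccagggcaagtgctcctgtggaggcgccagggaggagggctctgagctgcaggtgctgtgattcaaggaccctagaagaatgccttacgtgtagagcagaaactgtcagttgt
Cdc20 held 2 CCAAT matches and 1 TTTGAA match, and Kif20a and Cdca3 held 3 CCAAT matches each and no TTTGAA. Of the 34 called mitotic genes, 28 had a single window in the table. CCAAT was found in 21 of these (75.0%) and TTTGAA in 21 (75.0%). Among the 8413 genes tested that had a single window, 37.9% held CCAAT and 11.5% held TTTGAA. These are descriptions of letters in a window and not of binding.

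DNA replication genes were also high in imDC, and the order of the other 2 groups differed from gene to gene, as among all genes called higher. Of 41 DNA replication and nucleotide synthesis genes tested, 27 were called higher than both groups (65.9%, against 7.4% of all genes) and none lower. The count was 25 with a gene-length curve removed, 26 under median-ratio scaling and 23 under quantile normalization. IRDC was higher than control in 10 of the 27, lower in 7 and undecided in 10. These counts are near the shares among all 926 genes called higher (35.6%, 27.1% and 37.3%). In the mitotic genes IRDC was above control in 33 of 34. That difference between the lists was not tested. Tk1, the thymidine kinase of the salvage pathway, had 12.5, 12.8 and 11.4 FPKM in imDC, 5.70 to 6.78 FPKM in IRDC and 3.89 to 4.11 FPKM in control. Uhrf1, which helps to copy DNA methylation, averaged 6.92, 3.32 and 2.19 FPKM in imDC, IRDC and control. For both genes the difference from IRDC was 0.88 (SE 0.060 for Tk1 and 0.071 for Uhrf1; limma, adjusted p = 8.9e-08 and 4.2e-07).

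Within the MCM helicase the subunits did not move alike. Mcm6 averaged 13.2 FPKM in imDC, 7.74 in IRDC and 7.08 in control, and the step between IRDC and control was undecided. Mcm5 averaged 7.13, 4.27 and 2.45 FPKM in the same order. Mcm4 had 23.2 to 23.9 FPKM in imDC, 12.9 to 13.8 FPKM in IRDC and 24.4 to 25.6 FPKM in control, so its control level exceeded imDC. Mcm7 had 12.8, 12.5 and 8.12 FPKM in imDC, IRDC and control, and its difference from IRDC, 0.03 (SE 0.048), did not pass the test. The ribonucleotide reductase subunits also differed: Rrm1 had 23.4 to 26.4 FPKM in imDC, 14.6 to 15.8 FPKM in IRDC and 15.8 to 18.1 FPKM in control, whereas Rrm2 averaged 47.9, 38.3 and 13.5 FPKM. Tyms, the thymidylate synthase, followed Mcm4, with 11.6, 5.75 and 13.3 FPKM. Among chromatin assembly genes, 6 of 10 tested were called higher, against 7.4% of all genes. The chromatin assembly count was 5 with the length curve removed or under median-ratio scaling and 6 under quantile normalization. Among the 6 were Hmgn2 (100 FPKM in imDC, 55.6 in IRDC and 71.3 in control) and Hmgb2 (29.6, 19.4 and 11.0 FPKM).

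The window of Mcm5, chr19:13488563-13488862 (plus strand, GRCr8), is shown because this promoter held the E2F-type element GGCGGGA, known from genes of DNA synthesis. Capitals mark CCAAT and GGCGGGA, and TCCCGCC is GGCGGGA on the other strand.
Mcm5: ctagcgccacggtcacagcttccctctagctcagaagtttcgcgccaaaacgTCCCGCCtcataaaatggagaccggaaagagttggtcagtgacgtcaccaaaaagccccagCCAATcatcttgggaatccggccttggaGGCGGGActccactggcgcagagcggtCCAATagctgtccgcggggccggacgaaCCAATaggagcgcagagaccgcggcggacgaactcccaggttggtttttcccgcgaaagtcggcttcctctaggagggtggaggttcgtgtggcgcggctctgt
Mcm5 held 3 CCAAT and 2 GGCGGGA matches. Tk1 held neither, and Mcm6 held 2 CCAAT matches only. Of 21 called replication genes with a single window, GGCGGGA was found in 11 (52.4%), CCAAT in 14 (66.7%) and TTTGAA in 3 (14.3%). Among genes tested, 21.8% of windows held GGCGGGA. The 2 further motifs searched, ACGTG and CACGTG, of which the first lies within the second, were found in 28.6% and 14.3% of these windows, against 26.4% and 9.69% among genes tested.

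**Figure D3:**
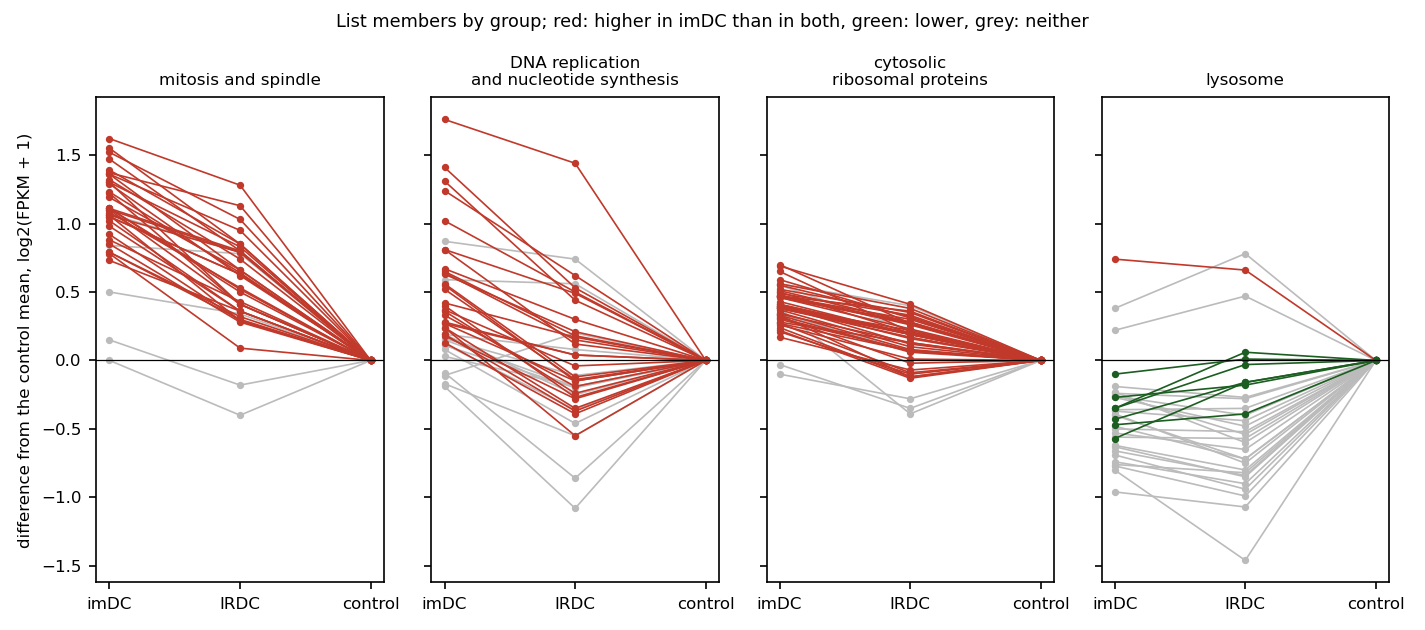
Each line is a list member, drawn as the difference of the group mean from the control mean on the log2(FPKM + 1) scale for imDC, IRDC and control (0 by construction). Most mitotic genes stand above 0 in both treated groups with imDC at the top, replication genes lie on either side of 0 in IRDC, and most lysosomal genes lie below 0 in both treated groups.

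Ribosomal protein genes were higher by small amounts, and the number called depended on the processing. Of 49 cytosolic ribosomal protein genes tested, 43 were called higher than both groups (87.8%, against 7.4% of all genes) and none lower. The count was 25 with a gene-length curve removed, 27 under median-ratio scaling and 26 under quantile normalization. Their median difference was 0.24 from IRDC and 0.40 from control, which is 0.15 and 0.49 above the medians of all genes. Rpl3 had 261, 263 and 264 FPKM in imDC, 194 to 197 FPKM in IRDC and 156 to 166 FPKM in control. Rpl11 averaged 95.5 FPKM in imDC, 75.3 in IRDC and 76.2 in control. The summed level of the list was 21600 to 21900 FPKM in imDC, 18200 to 18500 FPKM in IRDC and 16200 to 17100 FPKM in control. Ribosomal genes share reads with near-identical copies elsewhere in the genome, so levels of single members are uncertain.

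Other lists of the protein-making machinery moved less. Of 28 ribosome biogenesis genes, 3 were called higher and 1 lower (10.7% and 3.57%, near the 7.4% and 5.39% of all genes), and 1 was higher with the length curve removed or under median-ratio scaling. Of 22 translation factors tested, 6 were called higher (27.3%), for example Eif4b at 124, 97.5 and 96.2 FPKM in imDC, IRDC and control, and the count was 3 under median-ratio scaling. Of 40 splicing genes, 13 were called higher (32.5%), but the count was 2 with a length curve removed or under median-ratio scaling 10 under quantile normalization and 20 with voom on recovered reads. Of 33 mitochondrial ribosomal protein genes, 9 were called higher (27.3%), and 8 to 11 under these alternatives. Mrps16 averaged 40.7 FPKM in imDC, 26.5 in IRDC and 33.8 in control. Of 13 mitochondrially encoded genes, 6 were called higher (46.2%), against 1 under quantile normalization. In the endoplasmic reticulum list 5 of 25 were called higher, among them the chaperone gene Hspa5 at 512, 455 and 360 FPKM in imDC, IRDC and control. The list's count was 2 under median-ratio scaling, where Hspa5 was no longer called (smaller difference 0.05).

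Gene length went with these calls. The median length was 1926 bases among genes called higher, 3181 bases among genes called lower and 2231 bases among all genes. Under 1 kb, 10.7% of genes were called higher and 1.95% lower, whereas from 6 kb 5.11% were higher and 9.96% lower. With a lowess curve of length removed from the differences, these shares were 5.08% and 3.95% under 1 kb and 7.41% and 5.36% from 6 kb. The part of length in the ribosomal, splicing and mitochondrial calls was not tested beyond this.

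**Figure D4:**
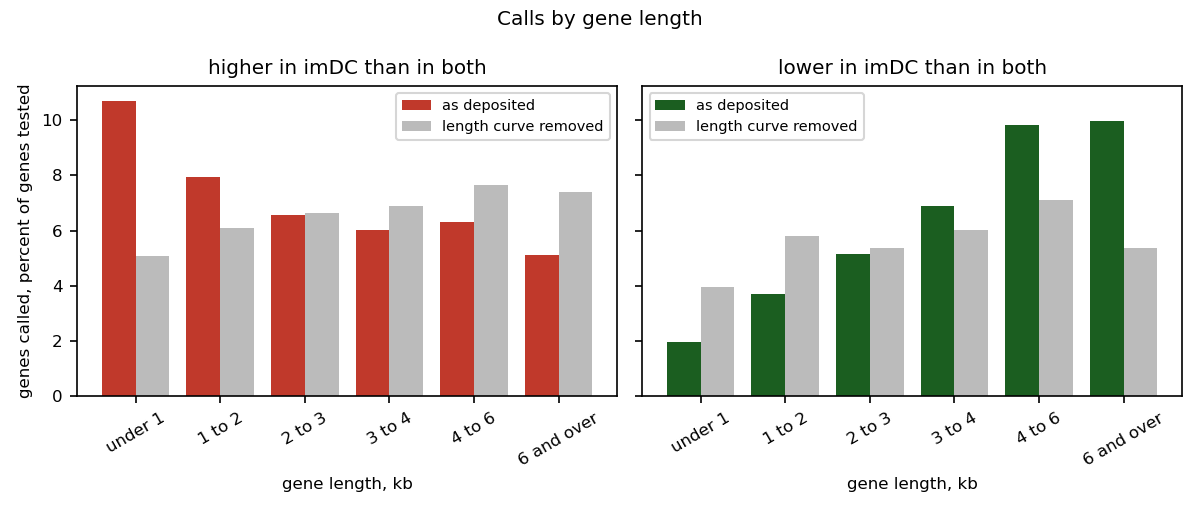
Bars give the percentage of genes tested in each length class that were called higher (left) or lower (right) in imDC than in both groups, on the deposited values (coloured) and with a length curve removed (grey). On the deposited values the share called higher was largest (10.7%) in the shortest class and the share called lower was largest (9.96%) in the longest, and the grey bars are flatter.

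Among matrix glycoproteins and proteoglycans, 5 of 41 tested were called higher and 2 lower (12.2% and 4.88%, against 7.4% and 5.39% of all genes). Thbs2, a thrombospondin that limits vessel growth, was among the most abundant at 1720 FPKM on average in imDC, 892 FPKM in IRDC and 1290 FPKM in control. Postn, the matricellular protein periostin, went the other way, with 966, 976 and 957 FPKM in imDC, 1560 to 1620 FPKM in IRDC and 1200 to 1230 FPKM in control. Its imDC values were the lowest of all libraries, with differences of -0.72 (SE 0.015) from IRDC and -0.33 (SE 0.015) from control (limma, adjusted p = 1.3e-12 and 1.5e-09). Fbn1, the main protein of microfibrils, averaged 287, 206 and 227 FPKM in imDC, IRDC and control. Of 20 collagen chain genes, 4 were called higher and 3 lower, and 2 and 5 under quantile normalization. Col14a1 averaged 591, 171 and 512 FPKM in imDC, IRDC and control, and Col8a1 averaged 211, 294 and 350 FPKM. Col1a1, the main chain of bone collagen, averaged 2380 FPKM in imDC, 2470 in IRDC and 1760 in control and was not part of the set.

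Of 33 matrix proteases and inhibitors, 4 were called higher and 3 lower (12.1% and 9.09%, near the 7.4% and 5.39% of all genes). Mmp12, the macrophage elastase, averaged 204, 143 and 99.2 FPKM in imDC, IRDC and control. Adamts1, which cleaves proteoglycans, averaged 166, 86.5 and 140 FPKM. Mmp14, the membrane-bound collagenase, was lower, with 281, 282 and 279 FPKM in imDC, and averaged 382 ± 7.96 FPKM in IRDC and 476 ± 6.80 FPKM in control (SD, n = 4 each). Adamts9 averaged 3.31, 5.14 and 12.7 FPKM in imDC, IRDC and control. Both lower genes fell with IRDC already below control, and imDC lay further down.

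Genes below both groups differed less. Of the 25 leading genes, IRDC was higher than control in 3, lower in 8 and undecided in 14. Among all 675 genes called lower, these shares were 19.1%, 35.1% and 45.8%, and among all genes tested 24.5%, 51.5% and 24.0%. Il33, a nuclear cytokine released by damaged cells, had 8.97, 9.43 and 8.48 FPKM in imDC, 17.0 to 18.1 FPKM in IRDC and 18.2 to 19.9 FPKM in control. The highest imDC value lay well below the lowest other value. The differences were -0.89 (SE 0.045) from IRDC and -1.02 (SE 0.045) from control (limma, adjusted p = 5.2e-09 and 1e-09). Nedd9, a scaffold protein of focal adhesions, averaged 29.5 FPKM in imDC, 43.9 in IRDC and 69.6 in control. Tmem47 averaged 38.2 FPKM in imDC, 54.0 in IRDC and 53.8 in control, and Slc12a2, the sodium-potassium-chloride cotransporter, averaged 15.3, 23.2 and 23.6 FPKM in the same order. In both, imDC alone stood low, and the step between IRDC and control did not pass the test. Mir6334, a microRNA gene of 99 bases, was the first of the list by size but rested on 3 to 6 reads in imDC, 15 to 18 in IRDC and 10 to 14 in control.

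Of 23 BMP pathway genes, 4 were called lower and 1 higher (17.4% and 4.35%, against 5.39% and 7.4% of all genes). Under the alternatives of length and scaling 3 or 4 were lower and 0 higher. Id2, a target of BMP signalling that blocks differentiation factors, had 9.06, 8.81 and 10.1 FPKM in imDC, 13.9 to 16.4 FPKM in IRDC and 14.5 to 16.1 FPKM in control. Bmp2, a ligand that induces bone, averaged 1.39 FPKM in imDC, 2.68 in IRDC and 4.13 in control. Of 29 TGF-beta genes, 5 were called lower and 3 higher (17.2% and 10.3%). The balance turned with the length curve removed, which gave 4 lower and 6 higher, and was 5 and 4 under median-ratio scaling and 5 and 3 under quantile normalization. Ccn2, a matrix-regulating target, averaged 627, 870 and 769 FPKM in imDC, IRDC and control, and the receptor gene Tgfbr1 averaged 12.3, 17.4 and 15.9 FPKM. Smad7, the feedback inhibitor, was also lower, with 10.9, 16.3 and 12.9 FPKM. On the higher side stood Inhbb, an activin subunit, at 34.2, 17.4 and 28.0 FPKM, and the activin inhibitor Fst at 63.3, 52.0 and 55.3 FPKM. Runx2, the master factor of bone formation, averaged 11.9, 12.6 and 12.8 FPKM in imDC, IRDC and control and was called in neither difference.

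Of 36 immediate early and ERK feedback genes, 4 were called higher and 3 lower (11.1% and 8.33%, near the shares of all genes), and 1 and 5 with the length curve removed. Spry4, an inhibitor of receptor tyrosine kinase signalling, averaged 9.51 FPKM in imDC, 18.8 in IRDC and 12.1 in control. Dusp6, the phosphatase of ERK, averaged 36.1, 25.2 and 30.2 FPKM in the same order. The glucocorticoid receptor gene Nr3c1 had 26.1, 25.4 and 23.5 FPKM in imDC and averaged 41.3 FPKM in IRDC and 30.9 FPKM in control, with differences of -0.70 (SE 0.038) and -0.29 (SE 0.038; limma, adjusted p = 1.1e-08 and 2.9e-05). Its IRDC libraries were the highest and its imDC libraries the lowest.

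Of 33 lysosomal genes tested, 7 were called lower and 1 higher (21.2% and 3.03%, against 5.39% and 7.4% of all genes), and 8 or 9 were called lower under the 3 alternatives of length and scaling. Lamp2, an abundant lysosomal membrane protein, had 231, 232 and 232 FPKM in imDC, 275 to 283 FPKM in IRDC and 301 to 327 FPKM in control. No imDC value reached the others. The sialidase gene Neu1 averaged 9.45, 12.8 and 14.5 FPKM, and the cholesterol exporter gene Npc1 averaged 13.8, 17.5 and 18.0 FPKM. Against control alone, 30 of 33 were lower in imDC and 27 of 33 were lower in IRDC, and 18 were higher in imDC than in IRDC. Among all genes tested, these shares were 40.1%, 51.5% and 38.6%.

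**Figure D5:**
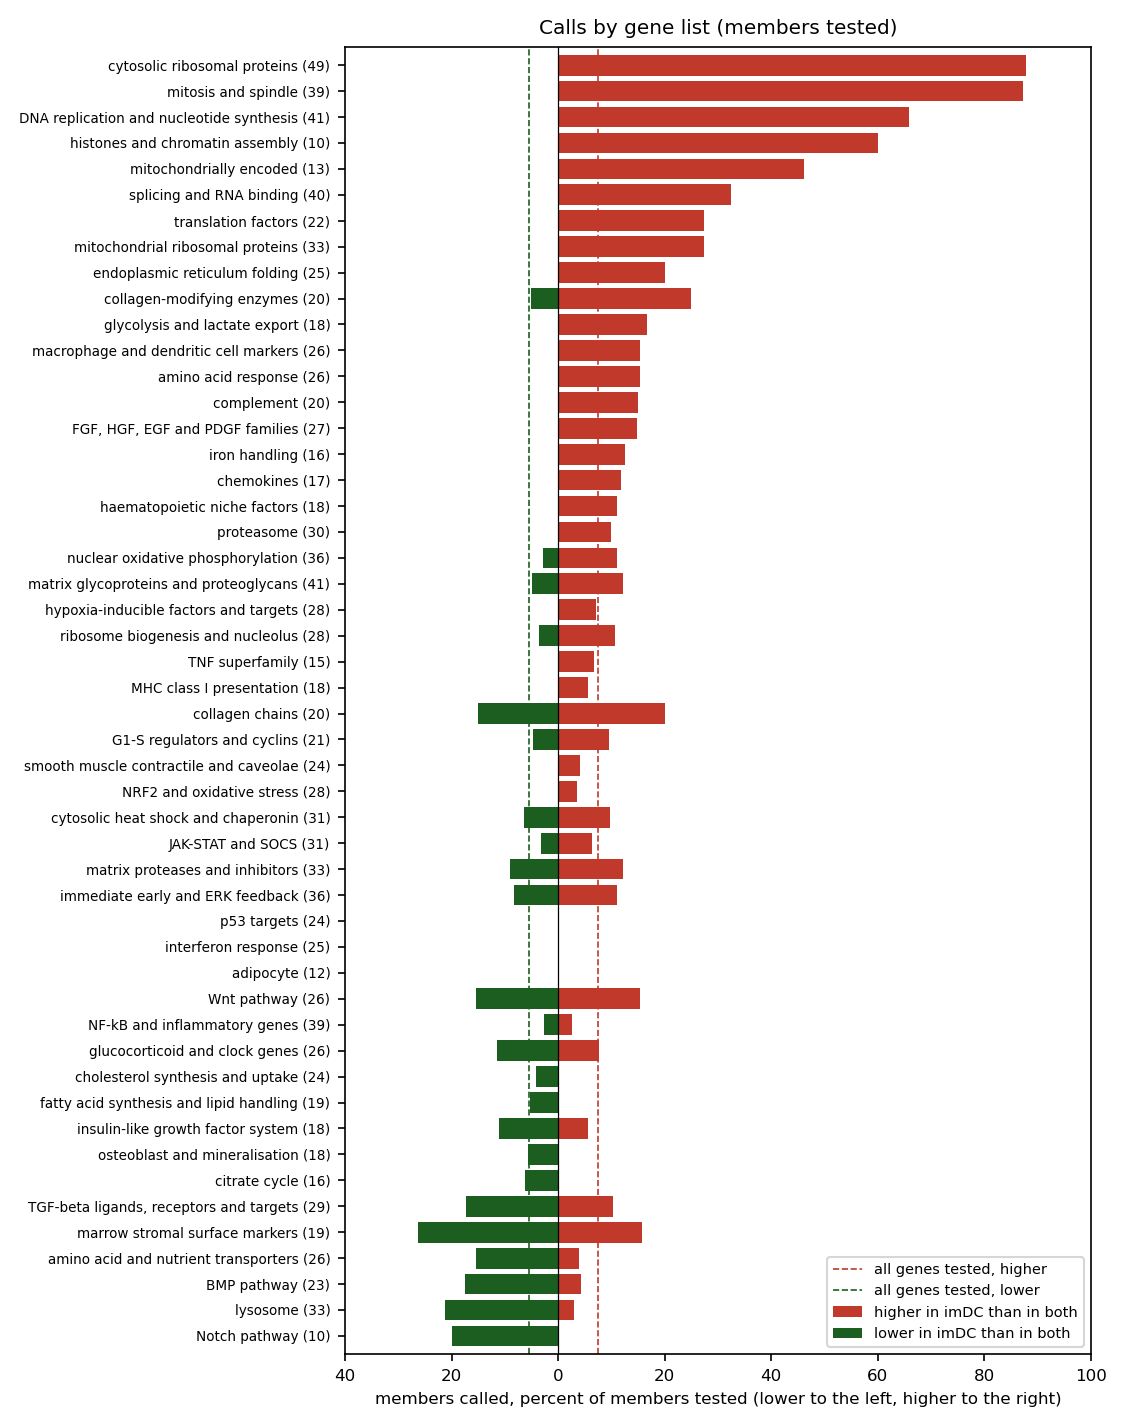
Bars give the percentage of tested members of each list (number in brackets) called higher (red, to the right) or lower (green, to the left) in imDC than in both other groups, for lists with at least 10 tested members. The dashed lines mark the shares of all genes tested, 7.4% and 5.39%, and the ribosomal, mitotic and replication lists stand farthest to the right.

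Myeloid genes were uneven. Of the 26 macrophage and dendritic cell markers tested, 4 were called higher than both groups (15.4%, against 7.4% of all genes) and none lower. The invariant chain gene Cd74 had 6.59, 6.51 and 5.77 FPKM in imDC, 1.40 to 1.86 FPKM in IRDC and 2.17 to 3.46 FPKM in control, while the class II genes that it serves stayed under 1 FPKM in every library. The macrophage surface gene Adgre1 averaged 20.5, 13.3 and 15.3 FPKM in imDC, IRDC and control, and the inhibitory Fc receptor gene Fcgr2b averaged 29.0, 21.6 and 7.58 FPKM. Msr1, the fourth, averaged 14.2, 13.0 and 11.4 FPKM, and its call was lost under both scalings, with the length curve removed and without imDC library 2 or 3 or IRDC library 4, where the smaller difference was at most 0.12. The common leukocyte gene Ptprc did not follow, with 8.48, 5.23 and 17.6 FPKM in imDC, IRDC and control, and neither did the macrophage lysozyme gene Lyz2, with 496, 185 and 519 FPKM. In both, imDC stood above IRDC and below control. The part of myeloid cells in Ccl12, Mmp12, Clu and C1s, which macrophages also express, was not tested.

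Of 20 complement genes tested, 3 were called higher, against 7.4% of all genes, and none lower, and 1 was lower under quantile normalization. C1s, a protease of the first complement component, had 190, 194 and 189 FPKM in imDC, 107 to 110 FPKM in IRDC and 69.2 to 72.8 FPKM in control. Its partner C1r averaged 238, 182 and 202 FPKM in imDC, IRDC and control. Clu, described above, was the third.

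At the edge of the rule the gaps were minimal. Just inside it, mrpl9 had imDC values from 18.33 FPKM upward, and its highest other value was 18.33 FPKM to 4 digits. Just outside, Eif4h had an imDC minimum of 91.37 FPKM and an equal highest other value at that precision. On the lower side, Wdr37 was just inside, with imDC values up to 6.005 FPKM and others from 6.006 FPKM. Matr3 was just outside, with imDC values up to 36.57 FPKM and others from 36.56 FPKM.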

How the data were processed

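FPKM values for rn6 genes were deposited by the authors; per the submitters' processing notes, HTSeq 0.13.5, Cufflinks 0.17.3, SAMtools 1.3.1, STAR 2.7.1a, cutadapt 1.18 and FastQC 0.11.9 were used, and neither the tool behind the FPKM nor strandedness is given in the sources used here. Antisense or overlapping genes therefore cannot be told apart. The table holds 32883 lines. Whole reads were recovered from the FPKM steps for 21487 of 21487 genes (relative tolerance 1e-08) and served for depth, reads of sparse genes and 2 alternatives.

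All 11 libraries entered 1 limma fit (lmFit, eBayes with trend) on log2(FPKM + 1), which understates fold changes of low genes. Filter and thresholds stand in the report. Named genes were the 25 leading ones per direction (with a symbol, meeting the rule, mean of at least 5 FPKM in imDC, or in both other groups for lower genes), up to 4 called members of each of 60 lists, 11 genes taken in any case and the genes at the edge of the rule. Other genes, such as Sfrp4, Rspo1, Col14a1, Smad7, Inhbb, Fst, Mcm4, Mcm7, Rrm1 and Tyms, were chosen after their values were seen. Some genes are not reported here. Members and lists were chosen with earlier results of these data known. The test was tried on simulated data in which IRDC and control had the same profile, unlike here. That trial therefore cannot speak to calls that depend on scaling. Alternatives were other pseudocounts (0.1, 0.5), filters, scalings, thresholds, a replicate block, array weights, voom on recovered reads, removal of a length curve and leaving out each library; thinning was added after seeing the data. Fits ran in limma 3.58.1 (R 4.3.3), counts and figures in Python 3.11.15 with pandas 2.3.3, NumPy 2.4.6 and matplotlib 3.10.9.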

Additional observations from a re-analysis of the deposited data

Results flagged for a closer look

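Among 374 groups of 4 libraries looked at for the named genes, 20 held 1 library far from the other 3 by Dixon's criterion, where chance gives about 1 in 20. In IRDC the lowest library had 6.88 FPKM of Ccl12 (others from 8.06 to 8.11), 10.1 of Pclaf (14.9 to 15.5), 53.6 of Eef1d, 59.5 of Bmp1 and 84.9 of Adamts1. The highest IRDC library had 8.86 FPKM of Mir6334, 10.5 of Sh3bp4, 7.16 of Lpxn, 14.6 of Mrpl15, 95.8 of Glul and 48.7 of Ankh. In control the lowest library had 22.1 FPKM of Tpst2, 2170 of Mt-cyb and 187 of Cd9. The highest control library had 7.57 FPKM of Fat4, 8.06 of Maml1, 31.7 of Dusp6, 33.0 of Chordc1, 375 of Hspa8 and 36.8 of Snrpg. The imDC group, with 3 libraries, was not looked at this way.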

How the results depend on the processing

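With a minimum of 1.5-fold, the calls were 631 for imDC minus the mean of the other groups, 106 higher and 14 lower than both, 1787 for imDC minus IRDC, 2196 for imDC minus control, 3918 for IRDC minus control and 33 over the lists. At an adjusted p of 0.01, 418 genes were called lower than both. Leaving out 1 library gave 961 to 1123 genes above and 696 to 859 below by the rule, which has fewer values to clear. It gave 4811 to 5752 calls for the contrast with the mean, 786 to 908 higher, 566 to 647 lower, 6739 to 7340 for imDC minus IRDC, 7342 to 7890 for imDC minus control, 9244 to 9489 for IRDC minus control and 267 to 289 over the lists. The replicate block gave 880 higher and 646 lower; correlations of same-numbered libraries, from -0.048 to 0.069, did not pair them. Of 184 named genes called, 39 were called in all 25 settings, 144 lost the call at 1.5-fold, 35 under median-ratio scaling and 32 with the length curve removed. For 14 the smaller difference was 0 at 2 decimals in at least 1 setting. Mir6334 was lost with voom on recovered reads. Depth limits genes such as Mir6334 and Axin2, which rest on few reads.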

Other observations

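Cd8a, a T cell surface gene that some dendritic cells and macrophages of the rat also express, averaged 18.9 FPKM in imDC, 14.2 in IRDC and 6.31 in control. The T cell receptor genes Cd3d and Cd3e were at 0 in every library, and Cd3g did not exceed 0.0828 FPKM. On a principal component analysis the second component (9.09% of the variance) placed the imDC libraries between -23.76 and -23.57, the IRDC libraries between 9.78 and 10.36 and the control libraries between 7.34 and 8.07, while the first (81.21%) placed imDC in between.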
